A study of Mus musculus with 2 samples.

Results

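The miR-30 family of the mouse genome was followed through small RNA libraries of 2 hearts. Its members were taken by gene symbol in GENCODE M21, a rule that holds no measured value, although the family was picked with earlier results of these data known: Mir30a, Mir30b, Mir30c-1, Mir30c-2, Mir30d and Mir30e, 6 of the 2202 miRNA genes counted. All 6 had more than 10 counts and none was lost to a filter. The hearts came from female B6CASTF1/J mice, a first-generation cross of a C57BL/6 and a CAST parent, at an age of 36 days (a free-text label gives the same number as months). Both libraries, biological replicates 1 and 2, form 1 untreated group without a control, so the data give levels and the spread between 2 hearts and no contrast of conditions. The labels describe separate biosamples under 1 shared donor code and do not settle whether these came from separate animals. A heart in this text therefore stands for 1 biological replicate. Values are counts of reads on the gene's strand, also given per 1000000 such reads over all miRNA genes (CPM). A small RNA read spans the mature miRNA whatever the length of its hairpin, so CPM values were not divided by length.

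A miRNA gene is transcribed into a hairpin, from which Drosha and Dicer cut a 5p and a 3p strand. The strand loaded into an Argonaute protein pairs with messenger RNAs mainly through its seed, bases 2 to 8, and lowers their output. Members of a family share the seed and so many targets. The miR-30 miRNAs are known from heart muscle as repressors of Ctgf, a gene that drives matrix production, and of the autophagy gene Becn1. The tables count a whole hairpin and do not separate its 5p and 3p strands.

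The RefSeq table (GRCm38.p6) held 4 of the 6 members, Mir30a, Mir30c-1, Mir30c-2 and Mir30e, and not Mir30b and Mir30d. Their 5p miRNAs are shown first because they define the family, 5′ to 3′ with the seed in capitals. The sequence of miR-384-5p, from a gene on chromosome X, is set beside them because it carries the same seed.
miR-30a-5p: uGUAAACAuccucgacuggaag
miR-30e-5p: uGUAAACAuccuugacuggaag
miR-30c-5p: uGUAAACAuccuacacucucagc
miR-384-5p: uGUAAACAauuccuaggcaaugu
The seed GUAAACA stood at bases 2 to 8 of 4 of 1679 mature miRNA names in the table (0.238%), and these are the 4 shown. Counting from 1 at the 5′ end, miR-30a-5p and miR-30e-5p differ at 1 of 22 bases (C13U). Against miR-30c-5p, miR-30a-5p is identical over its first 12 bases and differs at 5 of the 22 bases compared, from position 13 on. Likeness to miR-384-5p ends after 8 bases, with 12 of 22 bases identical in all.

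The 3p miRNAs differ more between the Mir30c genes than between Mir30a and Mir30e, which bears on which reads can be told apart. They are written here with the bases that differ within each pair in capitals.
miR-30a-3p: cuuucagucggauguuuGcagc
miR-30e-3p: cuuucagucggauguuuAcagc
miR-30c-1-3p: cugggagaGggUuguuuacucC
miR-30c-2-3p: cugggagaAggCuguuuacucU
The first pair differs at 1 base (G18A) and the second at 3 bases (G9A, U12C and C22U). The hairpins of Mir30a and Mir30e share 1 run of 18 bases, towards the 3′ end, and none of 20.

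Mir30c-1 and Mir30c-2 encode the same 5p miRNA. In their hairpins, the longest shared run is in capitals.
Mir30c-1 (chr4:120769534-120769622, minus strand): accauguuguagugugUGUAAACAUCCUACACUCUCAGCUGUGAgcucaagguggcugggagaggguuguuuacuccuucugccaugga
Mir30c-2 (chr1:23291701-23291784, plus strand): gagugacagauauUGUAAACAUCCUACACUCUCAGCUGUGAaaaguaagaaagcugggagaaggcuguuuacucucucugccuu
That run of 28 bases holds all 23 bases of miR-30c-5p. Of the 1005 hairpins in the table, 14.2% share a run of 18 bases or more with another hairpin. A read that lies wholly within the run maps to both genes, and reads that map to several places were counted at no gene. The counts of Mir30c-1 and Mir30c-2 below therefore come from reads that reach outside the run, such as the 3p miRNAs, and do not give the level of miR-30c-5p. By contrast, the 5p miRNAs of Mir30a and Mir30e share no run longer than 12 bases with another hairpin in the table.

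The libraries held 2074961 sense reads on miRNA genes in replicate 1 and 1766135 in replicate 2, so that 1 read equalled 0.482 and 0.566 CPM. A further 42.0% and 39.8% of all reads mapped to several places, which is 35.3 and 29.7 reads for each read counted at a miR-30 gene. As a check of the tissue, all 3 heart muscle genes (Mir208a, Mir208b and Mir499) were counted in both libraries, summing to 6143 and 8701 CPM. Skeletal muscle's Mir206 stood at 3.37 and 9.63 CPM and liver's Mir122 at 57.8 and 31.7 CPM. Genes of other cell types differed between the hearts to unequal extents. The 2 smooth muscle genes summed to nearly equal levels, 43118 and 44232 CPM, but most of this was Mir143 (41989 and 42366 CPM). Mir145a alone was less even, with 1129 and 1866 CPM. Endothelial Mir126a stood at 97017 and 65811 CPM, and the 3 leukocyte genes summed to 1506 and 2257 CPM. Those 3 did not move together. Mir150 (971 and 1955 CPM) and Mir223 (34.7 and 82.7 CPM) were higher in replicate 2, but Mir142 (500 and 219 CPM) in replicate 1. The 3 red blood cell genes, led by Mir451a, summed to 45889 CPM in replicate 1 and 7589 in replicate 2. All 3 were lower in replicate 2, but to unequal extents. Mir451a had 41391 and 5739 CPM, Mir144 3406 and 934 CPM, and Mir486 only 1092 and 917 CPM. The 6 embryonic genes summed to 1.45 and 190 CPM and the 6 epithelial genes to 269 and 627 CPM. Their part in the differences below was not tested. In whole tissue, fewer cells of a type and less RNA per cell cannot be told apart.

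The 6 genes together had 66798 counts in replicate 1 and 66740 in replicate 2. This was 3.22% (95% exact binomial interval 3.20 to 3.24) and 3.78% (3.75 to 3.81) of the sense reads on miRNA genes. Of all reads in the tables, sequenced reads that were unmapped or mapped to several places included, it was 1.19% and 1.34%. The larger share in replicate 2 thus came with a nearly equal number of reads in a smaller library. Intervals cover counting error only and treat each read as independent. Reads copied by PCR are not independent molecules, so the intervals may be too narrow.

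The locus on chromosome 15 held the member with the most counts, Mir30d, and one of those with the fewest, Mir30b. Mir30d (ENSMUSG00000065437.1; mm10, chr15:68341208-68341289, minus strand) lies in exon 3 of the long noncoding RNA gene Gm20732. It had 29810 counts in replicate 1 and 32106 in replicate 2. Those are 14367 CPM (95% exact Poisson interval 14204 to 14531) and 18179 CPM (17980 to 18379), with a mean of 16273 ± 2696 (SD, n = 2). Mir30d ranked 17th of all genes in replicate 1 and 13th in replicate 2. Mir30b (ENSMUSG00000065476.2; chr15:68337415-68337510), 3697 bp away on the same strand, overlaps the noncoding gene Gm26621 by 16 bases. It had only 608 and 606 counts, or 293 CPM (270 to 317) and 343 CPM (316 to 372), with a mean of 318 ± 35.4. In replicate 1 Mir30d exceeded its neighbour 49.0-fold (exact interval 45.2 to 53.2). The excess in replicate 2 was 53.0-fold (48.9 to 57.5).

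The locus on chromosome 1 showed the same inequality between neighbours. Mir30a (ENSMUSG00000065405.3; chr1:23272269-23272339, plus strand), which overlaps no other gene in GENCODE M21, had 20736 and 20760 counts. In CPM it stood at 9993 (9858 to 10130) and 11755 (11595 to 11916), with a mean of 10874 ± 1245 (SD, n = 2), and it ranked 19th and 17th. Mir30c-2 (ENSMUSG00000065567.1) lies 19361 bp downstream, within the single exon of the long noncoding gene Gm27028. Its counts of 1926 and 1536 gave 928 CPM (887 to 971) and 870 CPM (827 to 914), with a mean of 899 ± 41.4. Mir30a exceeded Mir30c-2 by 10.8-fold (10.3 to 11.3) in the first heart. In the other heart it did so by 13.5-fold (12.8 to 14.2), and these intervals do not overlap.

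The locus on chromosome 4 lies inside Nfyc, which encodes a subunit of the transcription factor NF-Y. Mir30e (ENSMUSG00000065409.1; chr4:120772606-120772697, minus strand) and Mir30c-1 (ENSMUSG00000065490.1), 2983 bp apart, sit in the same intron of each of the 6 Nfyc transcripts that span them. Mir30e had 13046 and 11126 counts, or 6287 CPM (6180 to 6396) and 6300 CPM (6183 to 6418). Its mean of 6293 ± 8.69 (SD, n = 2) had the smallest spread of the 6 genes in CPM. That closeness depends on the scaling. On the adjusted library sizes used below, Mir30e was lower in replicate 2, with a log2 ratio of -0.17. Mir30c-1 had 672 and 606 counts, or 324 CPM (300 to 349) and 343 CPM (316 to 372), with a mean of 333 ± 13.6. Within the intron, Mir30e exceeded Mir30c-1 by 19.4-fold (17.96 to 21.01) and 18.4-fold (16.9 to 20.0).

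**Figure D1:**
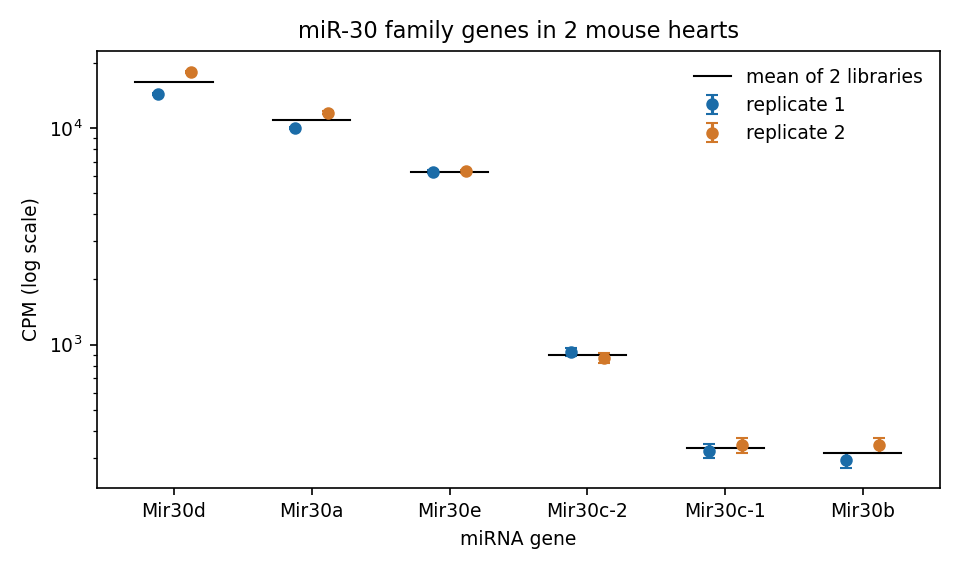
Level of each miR-30 gene in CPM on a log scale, in order of the mean. Points are the 2 libraries with 95% exact Poisson intervals, often smaller than the point, and lines are their means; Mir30d, Mir30a and Mir30e lie at 6287 CPM or more and the other 3 genes at 928 CPM or less.

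The order of the levels was Mir30d, Mir30a, Mir30e, Mir30c-2, Mir30c-1 and Mir30b. Of the 5 steps in this order, 4 were larger than the spread, since the 2 libraries of the higher gene both lay above the 2 of the lower. Mir30d was 1.496 times Mir30a by their means and Mir30a 1.73 times Mir30e. The widest step, 7.001 times, lay between Mir30e and Mir30c-2. Mir30c-1 and Mir30b did not differ beyond their spread: their means differed by 1.05 times, and both had 606 counts in replicate 2. Each locus thus paired 1 gene of at least 6287 CPM with 1 gene of at most 928 CPM, and 2 of those 3 lower genes are the Mir30c genes whose 5p reads cannot be assigned.

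Shares of the family's counts do not depend on library size. In replicate 1, Mir30d held 44.6% (exact interval 44.2 to 45.005). Its share of replicate 2 was 48.1% (47.7 to 48.5). Mir30a held 31.0% (30.7 to 31.4) and 31.1% (30.8 to 31.5), equal within counting error. The share of Mir30e was 19.5% (19.2 to 19.8) and 16.7% (16.4 to 17.0). These 3 genes made up 95.2% and 95.9% of the counts. By locus, the chromosome 15 pair held 45.5% and 49.0%, the chromosome 1 pair 33.9% and 33.4%, and the chromosome 4 pair 20.5% and 17.6%. Reads of miR-30c-5p that map to both Mir30c genes are outside all these shares. The chromosome 1 and chromosome 4 loci lack those reads, so the division of the family with them is not known. From replicate 1 to replicate 2 the share of chromosome 15 was higher by 3.48 percentage points, while that of chromosome 4 fell by 2.96.

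**Figure D2:**
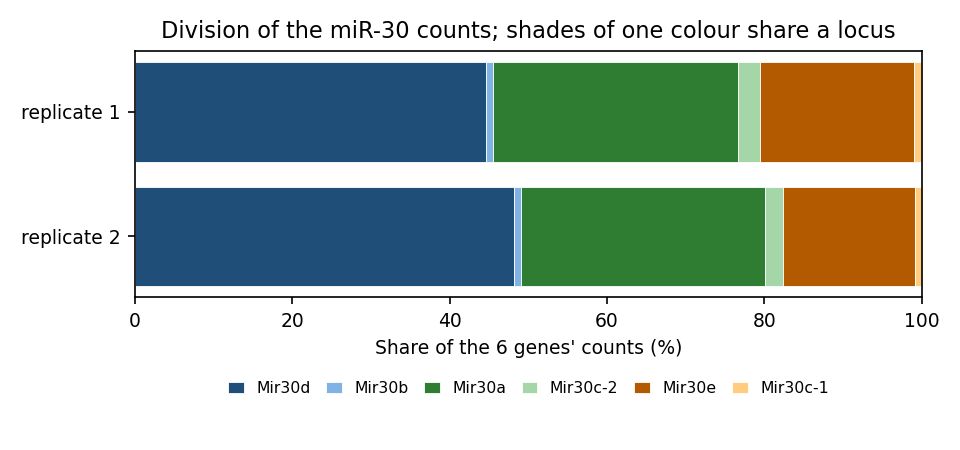
Share of each gene in the counts of the 6 miR-30 genes (percent, horizontal axis) for the 2 libraries, with the 2 genes of a locus in shades of one colour. The Mir30a segment is nearly equal in both, 31.0% and 31.1%, while Mir30d is wider and Mir30e narrower in replicate 2.

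Differences between the hearts were small for all 6 genes. Log2 ratios are of replicate 2 over replicate 1, on library sizes adjusted by edgeR's TMM factors, which assume that most genes do not differ. Mir30d had the highest ratio, 0.17 (exact interval 0.15 to 0.19), followed by Mir30a with 0.06 (0.04 to 0.09) and Mir30b with 0.06 (-0.11 to 0.22). Mir30c-1 stood at -0.09 (-0.25 to 0.07), Mir30e at -0.17 (-0.20 to -0.13) and Mir30c-2 at -0.26 (-0.36 to -0.17). The ratio for the sum of the 6 genes was 0.06 (0.05 to 0.08). It holds for TMM only, and the interval leaves out the choice of scaling. DESeq2 size factors gave both libraries the same size, at which the summed counts of 66798 and 66740 were nearly equal. No rise of the family is therefore read from this ratio. The median absolute ratio of the members was 0.13. Over all 359 genes tested it was 0.42, over the 70 genes averaging at least 1000 CPM 0.29, and over the 70 genes from 100 to 1000 CPM 0.32. In signed terms the members' median was -0.01, beside -0.01 over all genes tested.

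Small as they were, several differences exceeded counting error when each read was taken as independent. An exact two-sided binomial test of each gene's split of counts, with Benjamini-Hochberg adjustment over the 359 genes, called 4 of the 6 members at a threshold of 0.05, against a background of 44.3% of all genes tested. That test compares these 2 libraries, not conditions, and its power depends on a gene's counts. The background is over all genes tested, at any depth, so nothing particular to the family is read from the count of 4. Called higher in replicate 2 were Mir30d (adjusted p = 1.01e-47 in the exact test) and Mir30a (1.59e-05), beside 20.1% of all genes. Called higher in replicate 1 were Mir30e (adjusted p = 1.77e-18 in the exact test) and Mir30c-2 (3.31e-07), beside 24.2%. Mir30b and Mir30c-1, the genes with the fewest counts, were not called (adjusted p = 0.66 and 0.43 in the exact test).

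Which members were called depended on the scaling. Compared with library size alone, TMM lowers every log2 ratio by 0.17. With library size alone, 3 members were called higher in replicate 2, Mir30d, Mir30a and Mir30b, beside 28.7% of all genes, and none of the 6 was higher in replicate 1, beside 18.7% (47.4% either way). On that scale Mir30e stood at 0.0028 and Mir30c-1 at 0.08, so neither keeps its sign. With DESeq2 size factors, 1 member, Mir30d, was higher in replicate 2, beside 16.7%, and 2, Mir30e and Mir30c-2, were higher in replicate 1, beside 26.7% (43.5% either way). Mir30a and Mir30b stood at 0.0017 and -0.0047 there, so Mir30b changed its sign as well. Leaving the 3 red blood cell genes out of the library size, a choice made after seeing the data, gave ratios from -0.15 for Mir30c-2 to 0.28 for Mir30d, with Mir30e at -0.05 and Mir30c-1 at 0.03. Of the 6 members, only Mir30d was called in 1 direction under TMM, library size alone and DESeq2 size factors, with log2 ratios from 0.11 to 0.34. The share of all genes called in this way under all 3 scalings was not obtained. Nothing particular to Mir30d is therefore read from it.

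**Figure D3:**
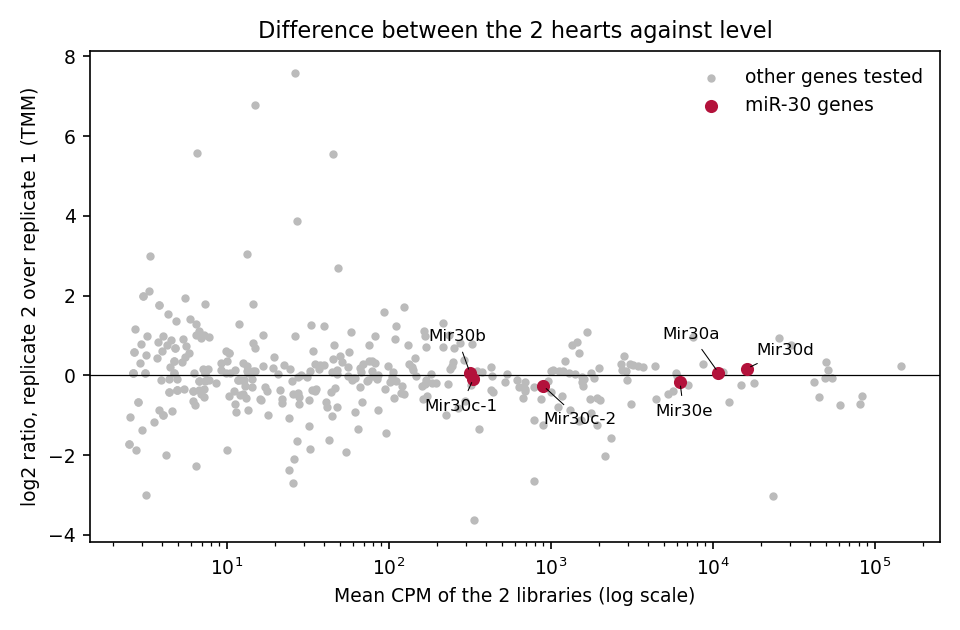
Log2 ratio of replicate 2 over replicate 1 (TMM scaling) against mean CPM on a log scale, for the 359 genes tested, with the 6 miR-30 genes in red. The miR-30 genes lie between -0.26 and 0.17, close to the zero line, while single genes of similar level differ by far more.

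Ratios between 2 genes of 1 library need no scaling, so the 15 pairs of members were compared in that way. For 8 of the 15 pairs, the exact interval of the change in ratio between the hearts left out 1. That number was not obtained for pairs of all genes, and pairs that share a gene are not independent. Nothing particular to the family is therefore read from the count of 8. The largest change was for Mir30d over Mir30c-2, which was 15.5 in replicate 1 and 20.9 in replicate 2, a change of 1.35 times (1.26 to 1.45). Mir30d over Mir30e went from 2.28 to 2.89, a change of 1.26 times (1.23 to 1.30), and Mir30a over Mir30e from 1.59 to 1.87, or 1.17 times (1.14 to 1.21). Across loci, then, Mir30d and Mir30a were higher relative to Mir30e in replicate 2.

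Neighbours of 1 locus were compared in the same way. Mir30e over its intron neighbour Mir30c-1 changed 0.946 times (0.844 to 1.06) and Mir30d over Mir30b 1.08 times (0.963 to 1.21), both intervals holding 1. Mir30a over Mir30c-2 changed 1.26 times (1.17 to 1.35). One of 3 pairs of neighbours and 7 of 12 pairs from different loci had an interval without 1. These numbers of pairs have no background and come from pairs that share genes, so nothing particular to the loci is read from them. The lower counts of Mir30b and Mir30c-1 widen their intervals. An interval that holds 1 does not show that a ratio was equal in both hearts. In absolute log2 terms the median change was 0.11 for neighbours and 0.20 for pairs from different loci, a difference that was not tested. Over all 9730 pairs of the 140 genes averaging at least 100 CPM, the median was 0.56.

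**Figure D4:**
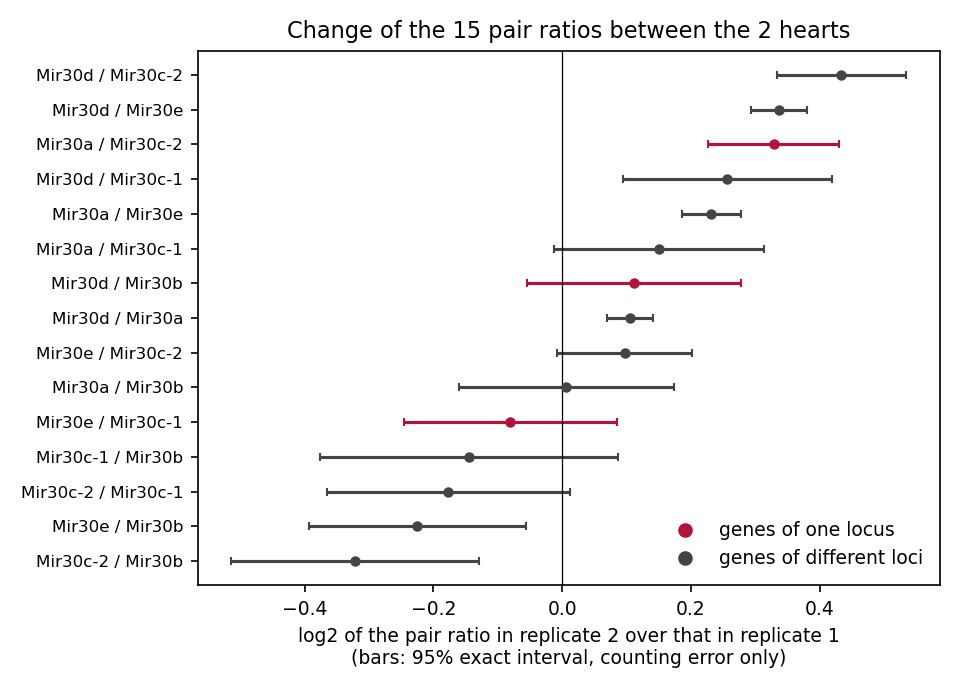
Log2 change between the hearts of the ratio of 2 miR-30 genes (replicate 2 over replicate 1) for the 15 pairs, with 95% exact intervals for counting error; pairs of 1 locus are red. All 15 changes lie within 0.43 of zero, and 2 of the 3 red intervals cross it.

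The strand of the reads decides whether Mir30e is seen. Mir30f, a miRNA gene of the opposite strand, covers the same 92 bases as Mir30e, so reads there are ambiguous when strand is ignored and Mir30e is then listed at 0. Read by strand, all 13046 and 11126 reads of the interval lay on the Mir30e strand and none on that of Mir30f. A count of 0 allows up to 3 reads, or 0.0230% and 0.0270% of those reads. RefSeq gives miR-30f as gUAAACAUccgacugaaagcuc, with bases 2 to 8 in capitals, a seed that is shifted by 1 base from that of the family. Neither did any other member have a read on its opposite strand. Mir384, whose 5p miRNA carries the family seed, had no read in either library, which allows up to 1.45 CPM in replicate 1 and 1.70 in replicate 2. Among the counted genes known from this table to carry the seed, reads thus came from the miR-30 genes alone.

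Other miRNA genes known for repressing matrix genes were set beside the family. This list of 12 genes holds Mir29a, Mir29b-1, Mir29b-2 and Mir29c (collagens), the Mir133 genes (Ctgf) and the Mir18 and Mir19 genes (Ctgf and thrombospondin). It summed to 3680 CPM in replicate 1 and 4472 in replicate 2, against 32192 and 37789 CPM for miR-30. Mir29a, with 3239 and 4209 CPM, made up most of it, and Mir29c followed with 291 and 164 CPM, Mir18 with 107 and 65.7 CPM and Mir29b-1 with 23.1 and 13.0 CPM. Of its 7 genes tested, 3 were called higher in replicate 1, beside 24.2% of all genes, and 2 in replicate 2, beside 20.1%. Their median absolute log2 ratio was 0.98, and 2 of the 12 genes, Mir19a and Mir19b-2, had no count. Several of these miRNAs are encoded by more than 1 gene, among them miR-29b by Mir29b-1 and Mir29b-2, miR-133a and miR-19b. Reads that map to more than 1 place are outside these values and the sum too.

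Beside 5 other families of several genes, miR-30 had the second highest sum of uniquely mapped reads in both libraries. Several of these families hold genes with the same mature miRNA, whose shared reads are outside the sums, so the order of the families with those reads is not known. The 11 let-7 genes summed to 274708 and 237270 CPM, the 3 miR-26 genes to 16337 and 35282 CPM and the 7 miR-15/16 genes to 13672 and 10487 CPM. The 4 miR-29 genes summed to 3566 and 4397 CPM and the 6 miR-181 genes to 2293 and 2490 CPM. The median absolute log2 ratio between the hearts was 0.15 for let-7 genes, 0.24 for miR-181, 0.59 for miR-15/16, 0.73 for miR-29 and 1.23 for miR-26, beside 0.13 for miR-30. Mir30d held 44.6% and 48.1% of its family's counts. The top gene held 34.4% and 31.1% in let-7 (Mirlet7i), 41.7% and 39.0% in miR-181 (Mir181d) and 37.3% and 36.4% in miR-15/16 (Mir322). Mir29a held far more of the miR-29 counts, 90.8% and 95.7%. Mir26b held 99.9% and 99.8% of the miR-26 counts, but Mir26a-1 and Mir26a-2 encode the same miR-26a-5p, whose reads map to both genes. No test was run between families.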

How the data were processed

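Small RNA was sequenced from 2 mouse hearts. The authors deposited raw read counts per miRNA gene on mm10 with GENCODE M21, per the deposited notes, in 3 columns (either strand, the gene's strand, the opposite strand). Which aligner and counter made them is not given in the sources used here. Any reads of the CAST allele were set against a C57BL/6 reference; the effect was not measured. Of 5606848 and 4990632 reads, the 4 rows that name no gene (unmapped, several places, no gene, ambiguous) held 63.0% and 64.6% in the sense column and stayed out of library sizes.

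CPM used sense counts over 2202 genes, all of which matched GENCODE. Log2 ratios used TMM (edgeR 4.0.16) and a prior count of 0.5. Genes whose summed counts reached 10 entered the exact binomial test (SciPy 1.17.1). Intervals are exact at 95%. DESeq2 1.42.0 size factors, library size alone, other filters, the strand-blind column, each library alone and other run lengths were alternatives; scaling without red blood cell genes was added after seeing the data. The binomial test and the ratio interval were run on simulated counts with known changes. Those counts were independent draws at known library sizes, without PCR copies. They therefore do not cover the limits given above for the intervals and the scaling. The rule for named genes took the 6 members, genes with their seed, the genes next to each in mean CPM, and the 4 highest genes of a list. The members and the lists were all chosen with earlier results of these data known. Sequences are from RefSeq (GRCm38.p6).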

Additional observations from a re-analysis of the deposited data

How the results depend on the processing

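Alternatives gave 171 values, of which 122 led to the same call or stayed within the spread. Part of these could not have come out otherwise. For levels, shares and ratios, either library alone lies within the SD of the mean by construction. Another prior count does not enter the exact test. The number 122 is therefore no measure of robustness. With counts that ignore strand, Mir30e fell to 0 CPM, 0% of the family and rank 598, and its ratio to Mir30c-1 to 0. Levels of Mir30a, Mir30b, Mir30c-1, Mir30c-2, Mir30d and the sum became 15045, 440, 462, 1246, 22501 and 39694 CPM, with ranks of 15, 90, 87, 66 and 12 for the 5 genes. CPM was here taken over the fewer reads counted on miRNA genes without regard to strand, 1473763 in replicate 1 and 1295913 in replicate 2. Counts of the 5 genes themselves did not change. Their shares became 38.0%, 1.11%, 1.17%, 3.17% and 56.6%, and those of the loci 41.1% (chromosome 1), 57.7% (chromosome 15) and 1.17% (chromosome 4). In that column 2 members were called, 1 in each direction, and the log2 ratio of Mir30a was 0.0221. Over all genes 148 were called there, 87 higher in replicate 1 and 61 in replicate 2. The number of genes tested without regard to strand is not given here. No share of all genes thus stands beside the count of 2 members, and nothing particular to the family is read from it. Mir30e, at 0, could not be tested in that column. Over all reads, levels of Mir30a, Mir30b, Mir30c-1, Mir30c-2, Mir30d, Mir30e and the sum were 3929, 115, 121, 326, 5875, 2278 and 12643 CPM. Without Mir451a in the library size, Mir30e stood at 6447 CPM.

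With library size alone, log2 ratios were -0.0939 for Mir30c-2 (no longer called), 0.23 for Mir30b (now called), 0.0028 for Mir30e and 0.0833 for Mir30c-1, and 0 members were called higher in replicate 1. Under DESeq2 size factors they were 0.0017 for Mir30a and -0.0047 for Mir30b, and 1 member was higher in replicate 2. Scaling without the red blood cell genes, added after seeing the data, gave 0.0265 for Mir30c-1. Each library alone gave ranks of 17 to 19 for Mir30a, 73 to 74 for Mir30c-2, 96 to 100 for Mir30b and 96 to 97 for Mir30c-1. At a run length of 20 bases, 2 members shared a run. The comparison of the 2 libraries could not be repeated with a library left out. At 606 counts, the exact interval limits what can be seen of Mir30b and Mir30c-1.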

Other observations

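The genes next to each miR-30 gene in mean CPM differed between the hearts to unequal extents. Mir31 and Mir200c, the genes just above and below Mir30c-1, had 620 and 56.1 CPM and 224 and 431 CPM in replicates 1 and 2, where Mir30c-1 had 324 and 343. Mir15a, just below Mir30c-2, had 1209 and 578 CPM, while Mir1839, just above it, had 949 and 902 CPM. Mir132 and Mir210, on either side of Mir30b, had 329 and 314 CPM and 347 and 248 CPM.

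The 3 abundant members had these neighbours. Mir149 and Mir99b, next to Mir30d, had 18223 and 17884 CPM and 15316 and 14479 CPM. Mir191 and Mir100, next to Mir30a, had 10596 and 12551 CPM and 7349 and 10131 CPM. Mir652 and Mirlet7f-2, next to Mir30e, had 7225 and 6894 CPM and 5742 and 6400 CPM.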
